A study of Mus musculus with 6 samples.

Results

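The genes described here copy the DNA of a dividing cell and supply the nucleotides for it. They are the MCM helicase and the proteins that license replication origins, the replicative polymerases and primase, the PCNA clamp with its loader and the Okazaki fragment enzymes, the enzymes of deoxynucleotide supply, the cyclins E and E2F factors that switch these genes on, and a few partners in chromatin assembly and repair. Of 47 listed genes, 46 of the 18193 genes measured were found by their annotated symbol, each read from its brightest probe set on average. Chaf1a was not analysed here. The choice of members used no measured value of this series, but they were proposed with earlier results of these data known.

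Expression was read on 6 Affymetrix mouse arrays in NMuMG, an immortalised line of epithelial cells from the mouse breast. All cells were grown in serum and insulin. The control cells received vehicle, the TGF-β cells received the cytokine at 4 ng/ml for 11 days, and the withdrawal cells received that treatment and were then kept a further 13 days without it. Each group had 2 arrays, labelled as replicates. Separate cultures are not stated, and the p-values reflect only array-to-array spread, which could be technical. The withdrawal cells were kept 13 days longer than the TGF-β treatment lasted, and the titles give no days in culture for the controls. Withdrawal and days in culture cannot be told apart, and neither can TGF-β treatment and days in culture.

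The groups follow the sample titles. Another label field gives the treated groups the opposite state names, calling the TGF-β cells epithelial again and the withdrawal cells mesenchymal. Acta2, the smooth muscle actin gene that TGF-β induces, was at 8.81 and 8.80 (log2 expression) on the control arrays, 13.63 and 13.61 on the TGF-β arrays and 8.08 and 8.20 on the withdrawal arrays. Cdh1, which encodes E-cadherin, was at 11.99 and 11.89, then 8.37 and 8.25, then 11.80 and 11.79. The titles therefore match these 2 genes. Of 10 epithelial markers, 7 lay above the median gene in at least 1 group, and the summed linear signal of the list was 54330 to 54595 in control, 27479 to 27894 under TGF-β and 33794 to 34198 after withdrawal. The keratin genes Krt8 and Krt18 had group means of 13.37 to 14.31, Krt19 and Spint2 were lower under TGF-β, at -3.82 and -2.92, and Cldn7, Esrp1 and Spint1 were dim, with group means of 4.40 to 5.75. Of 8 macrophage and leukocyte markers 7 were measured, and their summed linear signal was 2721 to 2779 in control, 1145 to 1186 under TGF-β and 3266 to 3366 after withdrawal. Cd14 made up most of that sum, while the pan-leukocyte gene Ptprc stayed at group means of 3.83 to 3.99. The macrophage gene Cd68 was at 5.55 and 5.94, then 5.49 and 5.68, then 6.55 and 6.71. By limma at an adjusted p under 0.05, 2 of the 7, Cd14 and Cd68, were higher on withdrawal than under TGF-β and 0 lower. That is 28.6% higher, where 21.8% of all genes were called higher and 22.1% lower. The part of these markers in the results was not tested. The summed signal of the fibroblast markers was 360 to 394, 437 to 453 and 332 to 344 in the 3 groups, and that of the endothelial markers 317 to 323, 322 to 348 and 295 to 310.

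Replication starts from origins that are licensed in G1, when the origin recognition complex, Cdc6 and Cdt1 load the MCM2-7 helicase ring onto DNA. In S phase Cdc45 and the GINS complex join the ring and start the fork, polymerase α with primase lays primers, and polymerases δ and ε extend them on the PCNA clamp. Most of these genes are switched on together at the G1/S boundary by E2F factors, which the retinoblastoma protein family holds in check in resting cells. TGF-β is known as a cytokine that slows the cycle of epithelial cells in G1.

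The members fell in a sequence: a modest decrease under TGF-β and a larger one after withdrawal. Under TGF-β, 33 of 46 members were lower than in control and 1, Ccne1, was higher, by limma with an adjusted p threshold of 0.05. Over all genes 17.5% were called lower and 15.0% higher. The median member difference was -0.38 on the log2 scale, a 1.30-fold decrease, against -0.01 for all genes, and 0 members fell by a full log2 unit, as 2.57% of all genes did.

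After withdrawal the members did not return to the control level. Compared with the TGF-β arrays, 43 of 46 were lower and 0 higher (0 higher also at an unadjusted p under 0.05), where 22.1% of all genes were called lower and 21.8% higher. The median difference was -0.99, a 1.99-fold decrease, against -0.03 for all genes. Compared with control, 44 of 46 were lower and 0 higher (0 also at an unadjusted p under 0.05), where 23.6% of all genes were called lower and 21.7% higher. On the TGF-β comparison 22 members had fallen by at least 1 (3.12% of all genes), and 32 members were lower in both steps in turn (4.19% of all genes). The median against control was -1.28, a 2.43-fold decrease, against -0.04 for all genes. Of the members, 35 had fallen by at least 1 from control, and 634 of all genes tested were called and had fallen as far (3.48%). These comparisons share arrays, so their values are given side by side and not as separate evidence.

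On the arrays themselves, 34 of 46 members lay in the order control, TGF-β, withdrawal with no overlap between any groups, as did 10.7% of all genes. Both withdrawal arrays lay below both control arrays for all 46 members (39.5% of all genes) and below both TGF-β arrays for 44 (37.2%). They lay below the other 4 arrays for 44 members and for 25.9% of all genes. The exceptions were Cdt1 and E2f2. The arrays of a group agreed closely, with a median within-group SD of 0.031 over the members and a largest SD of 0.22.

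**Figure D1:**
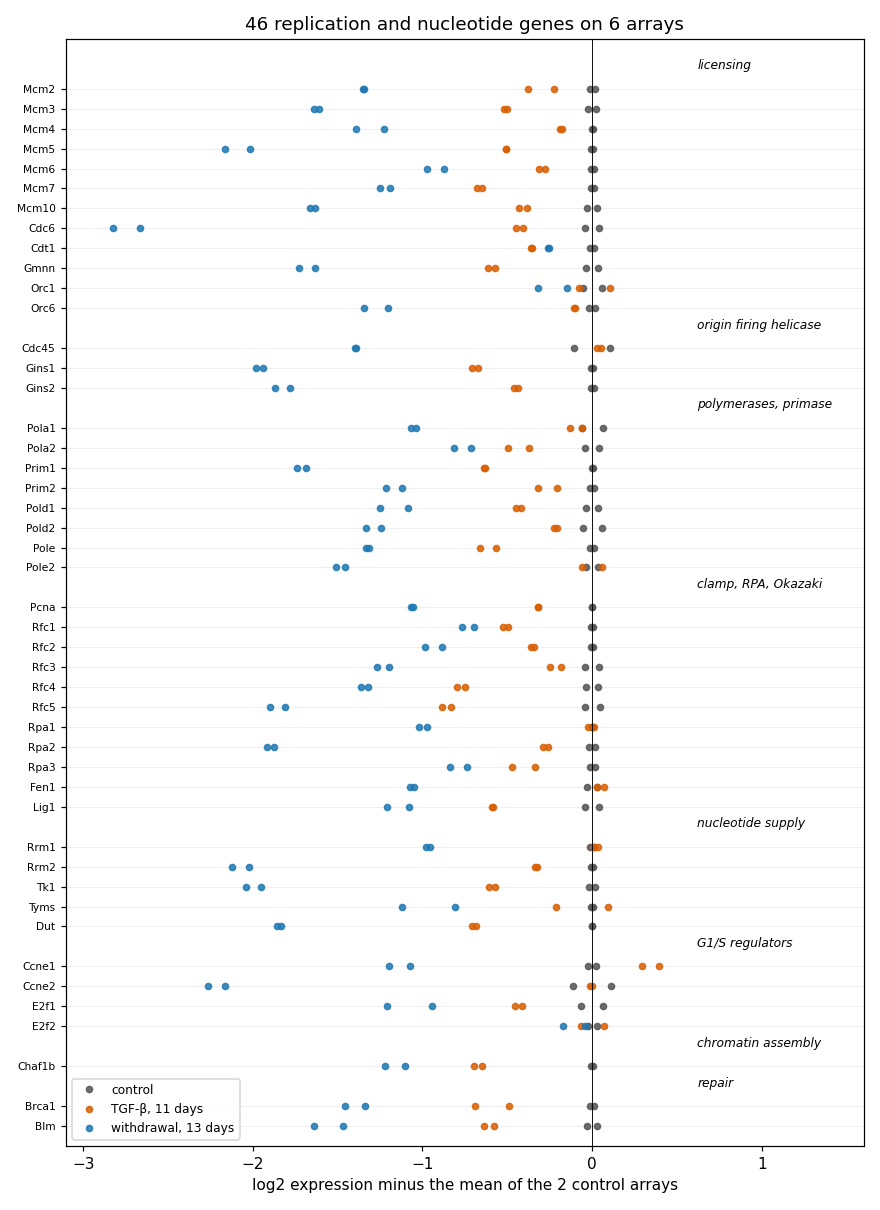
Log2 expression of 46 members on each of 6 arrays, given as the difference from the mean of the 2 control arrays, 1 row a gene and 1 point an array, grouped by step. The withdrawal points lie left of all other points for 44 members, and Ccne1 is the member whose TGF-β points lie to the right of its control points by a called difference.

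**Figure D2:**
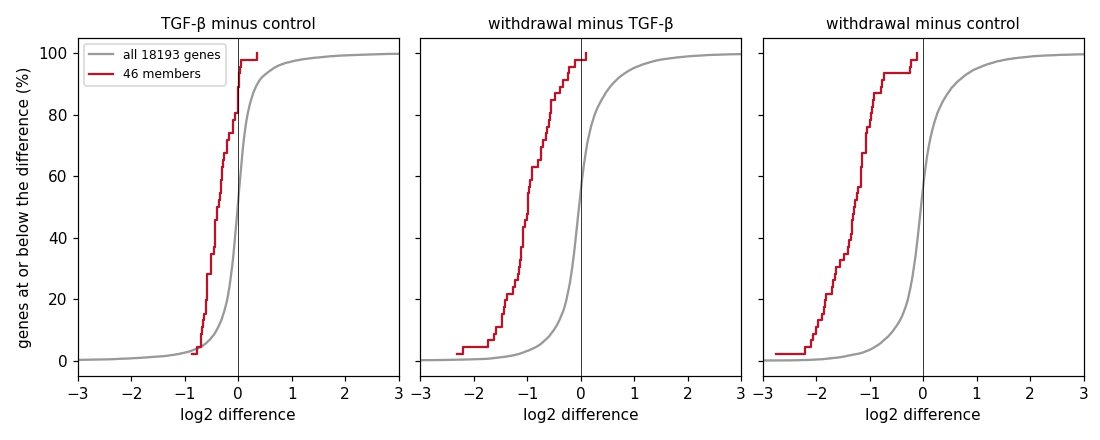
Cumulative share of genes, in percent, at or below each log2 difference, for the 46 members and for all 18193 genes, in the 3 comparisons. The member median lies at -0.38 under TGF-β, -0.99 for withdrawal against TGF-β and -1.28 for withdrawal against control, and the median of all genes lies within 0.05 of 0.

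RMA sets all arrays to a common distribution, so differences are relative to the arrays' common level. Scaled to the poly-A RNAs spiked in before labelling, the median of all genes moved to -0.27 under TGF-β, 0.11 for withdrawal against TGF-β and -0.16 for withdrawal against control. With the hybridization spikes these medians were -0.17, -0.25 and -0.42. The split of all genes moved with them: 903 higher and 5089 lower under TGF-β with poly-A scaling and 1319 and 4408 with hybridization spikes, against 2726 and 3175. For withdrawal against TGF-β these were 3672 and 1624, then 2146 and 7772, against 3960 and 4023, and for withdrawal against control 2136 and 3712, then 1655 and 12634, against 3943 and 4292. No called member turned its direction under either scaling. In bulk RNA, fewer cycling cells and less RNA of these genes per cell cannot be told apart.

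The 5 promoters below belong to called members of the licensing and clamp loader steps and show the E2F motif, a sequence that E2F factors can bind. Binding to these genes was not measured here. The motif was searched as TTTCCCGC, TTTGGCGC, TTTCGCGC or TTTGCCGC on both strands, in RefSeq windows (GRCm38.p6) from 250 bases before to 50 bases after each annotated start. Capitals mark the matches, neighbouring matches can overlap, and up to 50 bases on each side are shown, none past the start. Each lies just upstream of its gene and is written 5′ to 3′ on the gene's strand.
Mcm7, chr5:138171991-138172098, minus strand: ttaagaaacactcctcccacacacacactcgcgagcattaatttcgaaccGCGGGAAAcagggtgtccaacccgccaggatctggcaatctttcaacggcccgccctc
Mcm5, chr8:75109306-75109417, plus strand: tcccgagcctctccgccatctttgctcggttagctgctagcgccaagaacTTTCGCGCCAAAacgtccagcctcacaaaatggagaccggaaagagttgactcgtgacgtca
Cdc6, chr11:98907963-98908070, plus strand: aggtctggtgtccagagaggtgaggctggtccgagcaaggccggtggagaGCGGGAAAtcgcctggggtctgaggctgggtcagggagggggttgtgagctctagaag
Mcm6, chr1:128359706-128359865, minus strand: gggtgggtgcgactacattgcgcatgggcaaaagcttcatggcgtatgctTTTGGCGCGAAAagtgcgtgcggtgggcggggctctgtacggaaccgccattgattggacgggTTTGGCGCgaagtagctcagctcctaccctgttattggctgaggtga
Rfc3, chr5:151651209-151651268, minus strand: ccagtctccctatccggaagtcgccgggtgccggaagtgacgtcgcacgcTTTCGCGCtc

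A promoter window was listed for 38 members, and 13 of them (34.2%) held an E2F match, against 704 of 27025 genes in the whole table and 3.81% of the genes measured here. Mcm6 held 3 matches, and Mcm3, Mcm5, Mcm7 and Rfc3 held 2 each. The CCAAT box, searched as CCAAT, was in the windows of 23 of the 38 members (60.5%) and of 42.0% of the measured genes with a window. The CHR element of G2 and mitosis genes, searched as TTTGAA, was in 5 members (13.2%) and in 15.7% of those measured genes. The members with an E2F match had a median difference of -1.17 between withdrawal and control, from -2.75 for Cdc6 to -0.11 for E2f2. The 25 with a window and no match had a median of -1.29, from -2.07 to -0.73. A match describes these letters only.

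Licensing genes held the deepest fall of the set. Cdc6, the loader that brings the MCM ring to origins, was at 9.02 and 8.94 on the control arrays, 8.53 and 8.57 on the TGF-β arrays and 6.31 and 6.15 on the withdrawal arrays. The groups did not overlap, and the step on withdrawal was several times that under TGF-β. Its differences were -0.43 ± 0.071 (SE) under TGF-β and -2.32 ± 0.071 on withdrawal, to a level 6.71-fold below control (adjusted p = 0.00545, 7.34e-06 and 4.48e-06 for withdrawal against control).

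The 6 subunits of the MCM2-7 ring all ended lower, to differing extents. Mcm5 went from 11.31 and 11.32 to 10.81 and 10.81 and then to 9.16 and 9.30, a 4.26-fold decrease from control to withdrawal (adjusted p = 6.25e-06). Mcm3 went from 10.97 and 11.02 to 10.49 and 10.48 and then to 9.36 and 9.38, a 3.08-fold decrease. Mcm6, with 10.87 and 10.85, then 10.58 and 10.54, then 9.89 and 9.99, fell 1.90-fold on this probe set, and 2.78-fold on a second bright one, so that its place among the ring genes depends on the probe set read. Mcm7 was at 12.36 and 12.35 in control, 11.68 and 11.71 under TGF-β and 11.11 and 11.16 after withdrawal. Its TGF-β step was -0.66 ± 0.051 and its later one -0.56 ± 0.051, and the difference between these steps was not tested. Mcm2 and Mcm4 ended 2.54-fold and 2.48-fold below control. A second bright Mcm4 probe set ended 3.22-fold below control, and a second Mcm5 probe set 3.38-fold below. The size of these falls, and the place of Mcm4 among the ring genes, thus also depend on the probe set read.

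Under TGF-β alone, Mcm4 was at -0.18 and did not pass (adjusted p = 0.0939), but did without the first or the second withdrawal array (adjusted p = 0.0441 each). Mcm2 and Mcm6, at -0.30 each, passed with all arrays (adjusted p = 0.0164 and 0.00988). They lost the call without the first control array (0.0669 and 0.0595), without the second (0.0871 and 0.0510) and without the second TGF-β array (0.0701 and 0.0565). Mcm10, which helps to activate the loaded ring, was at -0.41 under TGF-β (adjusted p = 0.00198, but 0.0641 without x, s and a probe sets) and fell 3.13-fold from control to withdrawal.

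Cdt1 and its inhibitor geminin, encoded by Gmnn, parted. Cdt1 loads the MCM ring together with Cdc6, and geminin binds it in S and G2 to stop a second loading. Gmnn was at 11.06 and 11.14 in control, 10.49 and 10.53 under TGF-β and 9.37 and 9.47 after withdrawal, a 3.20-fold decrease in all (adjusted p = 9.53e-06). Cdt1 was at 11.04 and 11.02, then 10.68 and 10.67, then 10.78 and 10.78. It fell by 0.36 ± 0.048 under TGF-β (adjusted p = 0.00233), and its difference on withdrawal was 0.10 ± 0.048 (adjusted p = 0.151), so that its final difference from control was -0.26 (adjusted p = 0.00599, but 0.0683 with poly-A scaling and 0.0513 without x, s and a probe sets). A second Cdt1 probe set gave -0.38, 0.11 and -0.27 for the 3 comparisons, and another, very dim one was called in none. Whether the Cdt1 and Gmnn differences themselves differed was not tested. The rise of Cdt1 on withdrawal passed with cyclic loess and with an intensity trend (adjusted p = 0.0349 and 0.0196).

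Of the origin recognition subunits, Orc6 was at 10.29 and 10.25, then 10.16 and 10.16, then 9.07 and 8.92. Its TGF-β difference of -0.11 did not pass (adjusted p = 0.285), and it fell 2.25-fold on withdrawal (adjusted p = 4.15e-05). Orc1 was at 7.28 and 7.17, then 7.33 and 7.15, then 7.08 and 6.91, and passed in no comparison (adjusted p = 0.932, 0.0791 and 0.0918). Its other probe set, dimmer by mean, was at 7.24 and 7.18, then 7.43 and 7.48, then 6.43 and 6.31, and fell by 1.09 on withdrawal. With the mean of both probe sets the withdrawal step of Orc1 passed (-0.67, adjusted p = 0.000428). The probe sets of Orc1 thus disagreed in size, and the value of this gene rests on which of them is read.

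The helicase partners that start the fork all fell on withdrawal, and Gins1 and Gins2 fell under TGF-β as well. Gins1, a GINS subunit, was at 9.88 and 9.89, then 9.21 and 9.18, then 7.95 and 7.91, a 3.89-fold decrease from control (adjusted p = 4.48e-06). Gins2 fell 3.54-fold. Among the other GINS genes, Gins3 was not called under TGF-β (0.15, adjusted p = 0.0839) and Gins4 fell by 0.27 (adjusted p = 0.0321). Cdc45, the third part of the active helicase, was at 8.07 and 8.28 in control and 8.22 and 8.20 under TGF-β, where the groups overlapped, and at 6.77 and 6.78 after withdrawal. It differed by 0.04 ± 0.078 under TGF-β (adjusted p = 0.76) and fell by 1.43 ± 0.078 on withdrawal (adjusted p = 3.96e-05).

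All 8 polymerase and primase genes were lower after withdrawal than in control, with differences from -1.71 to -0.76. Prim1, the catalytic primase subunit, was at 10.93 and 10.94, then 10.30 and 10.30, then 9.19 and 9.25, a 3.28-fold decrease. Pola2, the accessory subunit of polymerase α, had the smallest fall, from 9.75 and 9.68 to 9.22 and 9.34 and then 8.90 and 9.00, 1.70-fold in all. Its step on withdrawal, -0.33 (adjusted p = 0.0111), was lost without the second TGF-β array (0.0583), without the first withdrawal array (0.0564) and with poly-A scaling (0.469). Pola1, the catalytic subunit, was at 9.18 and 9.31, then 9.18 and 9.12, then 8.17 and 8.21. It did not pass under TGF-β (-0.09, adjusted p = 0.341) and fell 1.95-fold on withdrawal.

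The subunits of polymerase ε, which copies the leading strand, had unlike TGF-β differences. Pole, the catalytic subunit, was at 8.98 and 8.96, then 8.40 and 8.31, then 7.66 and 7.63, with differences of -0.61 ± 0.056 under TGF-β (adjusted p = 0.000458) and -0.71 on withdrawal. Pole2 was at 9.89 and 9.97, then 9.99 and 9.87, then 8.42 and 8.47. Its TGF-β arrays overlapped the controls (-0.0010 ± 0.065, adjusted p = 0.994), and it fell by 1.48 ± 0.065 on withdrawal (adjusted p = 1.94e-05). In the end the subunits lay 2.50-fold and 2.80-fold below control.

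For polymerase δ, which copies the lagging strand, Pold1 was at -0.43 under TGF-β (adjusted p = 0.00502) and ended 2.25-fold below control. A second Pold1 probe set had steps of -0.38 and -0.28 and ended 1.58-fold below, so the size of its fall depends on the probe set read. Pold2 ended 2.44-fold below control. The TGF-β calls of Pold2 at -0.21 (adjusted p = 0.0471) and of Prim2 at -0.26 (adjusted p = 0.0263) were weak. Pold2 lost its call whichever of the 6 arrays was left out, with adjusted p of 0.0565 without either withdrawal array, 0.0614 and 0.213 without the first and second control array, and 0.131 and 0.158 without the first and second TGF-β array. Prim2 lost its call without the first or second control array (0.0926 and 0.120) and without the second TGF-β array (0.124).

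**Figure D3:**
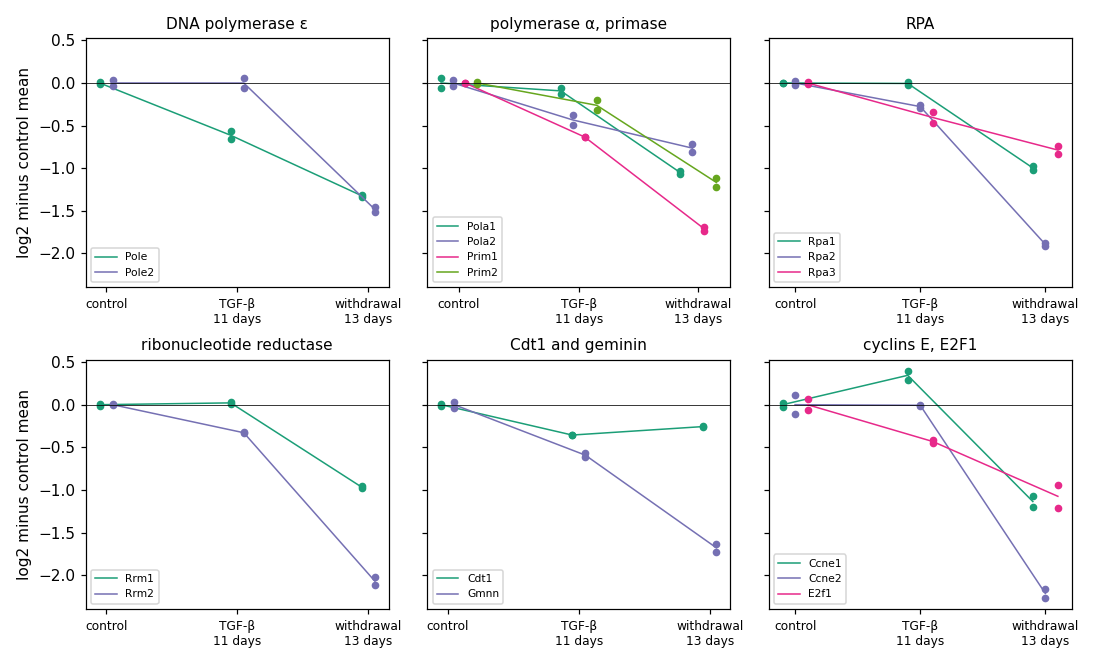
Log2 expression minus the control mean for genes of 6 complexes or pairs, with 1 point an array and lines through the means of 2 arrays. Pole2, Pola1, Rpa1, Rrm1 and Ccne2 stay near 0 under TGF-β and are lower after withdrawal, Cdt1 stays near its TGF-β level, and Ccne1 lies above 0 under TGF-β.

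Pcna, the sliding clamp that holds polymerases on DNA, was at 13.28 and 13.28 in control, 12.96 and 12.96 under TGF-β and 12.21 and 12.22 after withdrawal. Its steps were -0.32 ± 0.047 and -0.74 ± 0.047, a fall of 2.09-fold in all (adjusted p = 1.81e-05). The 5 subunits of replication factor C, which load the clamp, all fell from control to withdrawal.

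Within the loader, Rfc5 and Rfc4 had the lowest TGF-β differences of the 46 members. Rfc5 was at 10.19 and 10.28, then 9.40 and 9.35, then 8.43 and 8.34, and its TGF-β difference of -0.86 ± 0.062 came first (adjusted p = 0.00018). Rfc4 was at 9.63 and 9.69, then 8.86 and 8.91, then 8.34 and 8.30, with -0.77 ± 0.054 (adjusted p = 0.000164) followed by -0.57. Rfc1, the large subunit, was at 9.68 and 9.70, then 9.16 and 9.20, then 8.92 and 9.00, and 69.8% of its final difference was present under TGF-β. Its other probe sets gave 60.9% and 37.4%, so this share depends on the probe set read. Its step on withdrawal of -0.22 (adjusted p = 0.0172) was lost without the first or second TGF-β array (0.0547 and 0.0818), without the first withdrawal array (0.0686) and with poly-A scaling (0.808). Rfc3 was at -0.22 under TGF-β (adjusted p = 0.0373). That call was lost without the first or second control array (0.178 and 0.0747) and without the first or second TGF-β array (0.0771 and 0.160), and the gene ended 2.35-fold below control. Rfc2 ended 1.91-fold below.

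The subunits of RPA, which coats single-stranded DNA, moved apart. Rpa1 was at 11.86 and 11.87, then 11.84 and 11.88, then 10.85 and 10.89, so that TGF-β arrays spanned the controls (-0.0057 ± 0.050, adjusted p = 0.951) before a 1.99-fold decrease. Rpa2 was at 9.33 and 9.29, then 9.04 and 9.01, then 7.39 and 7.43, a 3.72-fold decrease in all (adjusted p = 4.84e-06). Its TGF-β step of -0.28 passed (adjusted p = 0.00825) except without the first control array (0.0564). Rpa3 was at 10.16 and 10.13, then 9.81 and 9.68, then 9.31 and 9.41, with steps of -0.41 and -0.38, and the later one was lost with poly-A scaling (adjusted p = 0.323).

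Fen1 and Lig1 trim and seal Okazaki fragments. Fen1 was at 11.29 and 11.23, then 11.29 and 11.33, then 10.21 and 10.19, with 0.05 ± 0.052 under TGF-β (adjusted p = 0.545) and a 2.16-fold decrease on withdrawal. Lig1, the ligase, was at 10.20 and 10.12, then 9.58 and 9.57, then 8.95 and 9.08, and fell in nearly equal steps of -0.59 ± 0.066 and -0.56 ± 0.066.

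The enzymes of deoxynucleotide supply fell further than the polymerases by median, -1.85 against -1.23 from control to withdrawal, a difference between lists that was not tested. Rrm2, the S-phase subunit of ribonucleotide reductase, was at 12.48 and 12.47, then 12.14 and 12.15, then 10.35 and 10.45, a 4.20-fold decrease (adjusted p = 4.84e-06). Rrm1, the large subunit, was at 11.09 and 11.06, then 11.08 and 11.11, then 10.09 and 10.12, with 0.02 ± 0.049 under TGF-β (adjusted p = 0.796) and a 1.99-fold decrease on withdrawal.

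Tk1, the salvage thymidine kinase, was at 11.07 and 11.11, then 10.52 and 10.49, then 9.05 and 9.14, and fell 3.99-fold in all (adjusted p = 5.40e-06). Dut, the dUTPase that keeps uracil out of DNA, was at 11.67 and 11.67, then 10.99 and 10.96, then 9.84 and 9.81, with a final difference from control of -1.85. The other probe set of Dut, much dimmer, gave -0.24 and -0.35 for TGF-β and for withdrawal against TGF-β, and neither passed (adjusted p = 0.308 and 0.12 in the fit that reads it).

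Tyms, the thymidylate synthase gene, was read by a dim probe set, at 5.54 and 5.52, then 5.32 and 5.62, then 4.41 and 4.72. It did not pass under TGF-β (-0.06, adjusted p = 0.802) and fell by 0.90 on withdrawal (adjusted p = 0.00256). A brighter probe set, annotated to both Tyms and its pseudogene Tyms-ps and so left out of the member, was at 10.68 and 10.72, then 10.30 and 10.31, then 9.10 and 9.12. Its differences were -0.40, -1.19 and -1.60 for the 3 comparisons. Reads of the gene and of its pseudogene cannot be told apart there.

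The cyclins E, which drive CDK2 at the G1/S boundary, did not fall under TGF-β. Ccne1 was at 8.57 and 8.62 in control, 8.89 and 8.99 under TGF-β and 7.40 and 7.52 after withdrawal. Its TGF-β arrays lay above both controls, by 0.34 ± 0.068 (adjusted p = 0.0108), and its withdrawal arrays below all others, 2.20-fold under control. The rise was lost without the first control array (0.0667), without the second TGF-β array (0.0602), and with poly-A and hybridization spike scaling (0.672 and 0.287). The second Ccne1 probe set gave 0.13 under TGF-β.

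Ccne2 was at 8.69 and 8.46, then 8.56 and 8.57, then 6.31 and 6.41. It differed by -0.0068 ± 0.087 under TGF-β (adjusted p = 0.967) and fell 4.62-fold on withdrawal (adjusted p = 1.43e-05), the deepest fall of that step after Cdc6. The rank is by size, and the difference between them was not tested.

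E2f1, an activating E2F factor, was at 8.16 and 8.29, then 7.81 and 7.77, then 7.02 and 7.28, 2.11-fold below control in the end. Its TGF-β step of -0.43 (adjusted p = 0.0194) was lost without the second control array (0.106) and without the first or second TGF-β array (0.0645 and 0.0846). E2f2, another activator, was dim, at 6.14 and 6.08, then 6.04 and 6.18, then 6.07 and 5.94, and passed in no comparison. Its other probe set was at 5.98 and 6.14, then 5.56 and 5.47, then 5.34 and 5.40. There the differences from control were -0.55 under TGF-β and -0.69 after withdrawal. Both passed in a limma fit of all probe sets (adjusted p = 0.00416 and 0.000863). The step on withdrawal did not (-0.14, adjusted p = 0.244). The calls of E2f2 thus depend on the probe set read.

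Chaf1b, a subunit of the chromatin assembly factor that places histones behind the fork, was at 9.71 and 9.72, then 9.06 and 9.01, then 8.61 and 8.49. Its steps were -0.67 ± 0.061 and -0.49 ± 0.061, and the difference between them was not tested. The second step was lost with poly-A scaling (adjusted p = 0.107). A dimmer Chaf1b probe set gave -0.28 and -0.06 for these steps, and the later one was not called there. Of the repair genes, Brca1, a recombination factor, was at 8.97 and 8.94, then 8.47 and 8.26, then 7.62 and 7.50, 2.64-fold below control in the end. Blm, the Bloom helicase gene, was at 8.36 and 8.30, then 7.75 and 7.69, then 6.86 and 6.69, 2.94-fold below.

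The TGF-β step was a variable part of the whole fall. Over the 44 members called lower after withdrawal than in control, the TGF-β difference was a median of 29.7% of the final one, with both measured against the same control arrays. The share depends on the scaling, with a median of 42.5% under poly-A scaling and 32.3% under hybridization spike scaling. By step, without spike scaling, the median was 57.9% for chromatin assembly (1 gene), 40.7% for repair (2 genes) and 0.31% for the G1/S regulators (3 genes). The median was 37.5% for the clamp, RPA and Okazaki genes and 29.7% for the polymerases. Licensing had 24.7%, the fork helicase 24.6% and nucleotide supply 15.9%. The last is over 5 genes and includes Tyms at 6.08%, read from its dim probe set. The brighter probe set shared with Tyms-ps had -0.40 under TGF-β and -1.60 after withdrawal, each against control. The place of nucleotide supply among the steps thus depends on the probe set read for Tyms. It was over 50% in 8 members (16 with poly-A scaling and 6 with hybridization spike scaling), among them Chaf1b at 57.9%, Rfc4 at 57.7% and Mcm7 at 54.4%, and Cdt1 at 139%, which ended above its TGF-β level. It was under 10% in 10 members (1 with poly-A scaling and 5 with hybridization spike scaling), among them Rpa1, Pole2, Rrm1, Ccne2, Cdc45 and Fen1. Subunits of a complex could differ in this share, as Pole and Pole2, Rpa1 and Rpa3, and Rrm1 and Rrm2 did, and those differences were not tested.

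Other genes of the pathway were taken from lists chosen for their function. Of 31 other origin and fork genes, 19 (61.3%) were lower and 2 (6.45%) higher under TGF-β, against 17.5% and 15.0% of all genes. After withdrawal 27 (87.1%) were lower than in control and 2 (6.45%) higher, against 23.6% and 21.7%, with a median of -1.09. Cdc7, the kinase that fires origins, was at 8.23 and 8.27, then 8.03 and 7.95, then 6.18 and 6.12, and fell by 1.84 on withdrawal. Dscc1, of an alternative clamp loader, and the topoisomerase gene Top2a had final differences from control of -2.16 and -1.89 (log2). Pold4, a small polymerase δ subunit, went against them, at 9.05 and 9.08, then 9.98 and 9.97, then 9.54 and 9.72, higher by 0.91 under TGF-β and by 0.56 after withdrawal (adjusted p = 0.000262 and 0.00113).

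Of 26 other nucleotide enzyme genes, 8 (30.8%) were lower and 2 (7.69%) higher under TGF-β, against 17.5% and 15.0% of all genes. After withdrawal 20 (76.9%) were lower than in control and 2 (7.69%) higher, against 23.6% and 21.7%, with a median of -0.66. Dck, the deoxycytidine kinase gene, differed by -0.06 under TGF-β and fell by 1.68 on withdrawal, and the purine synthesis gene Pfas fell by 1.53. Tk2, the mitochondrial thymidine kinase, and Ctps2, a CTP synthase, were higher after withdrawal than under TGF-β, by 0.78 and 1.10.

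Of 30 other G1/S control genes, 11 (36.7%) were lower and 8 (26.7%) higher under TGF-β, against 17.5% and 15.0% of all genes. After withdrawal 14 (46.7%) were lower than in control and 10 (33.3%) higher, against 23.6% and 21.7%. The median was -0.15, and the list holds activators and inhibitors called in each direction. Ccna2, the S-phase cyclin, was at 11.21 and 11.16, then 10.49 and 10.54, then 8.94 and 9.00, with a final difference of -2.22. The ubiquitin ligase gene Skp2 and the repressor gene E2f8 had final differences of -2.16 and -2.29. E2f7, a repressing E2F, was at 8.34 and 8.36, then 8.94 and 8.93, then 6.53 and 6.57, with differences of 0.59 under TGF-β and then -2.39.

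The retinoblastoma family and the CDK inhibitors of this list did not move one way. Rb1, the retinoblastoma gene, was at 7.40 and 7.29, then 7.70 and 7.59, then 8.91 and 8.92, higher by 1.27 ± 0.066 on withdrawal (adjusted p = 3.42e-05). Rbl2, which encodes the p130 protein of resting cells, was at 7.64 and 7.55, then 7.31 and 7.33, then 8.44 and 8.51, higher by 1.16. Rbl1, the other family member, fell by 0.71 on withdrawal (adjusted p = 0.000107), and its final difference from control was -1.28. Cdkn2a, the locus of the p16 and ARF inhibitors, was at 8.22 and 8.26, then 8.75 and 8.76, then 10.26 and 10.34, higher by 0.52 under TGF-β and by a further 1.54 (adjusted p = 1.02e-05). Cdkn1b, Cdkn2b and Cdkn2c were also higher on withdrawal, by 0.64, 0.68 and 0.58, and Cdkn1c was not called. Cdkn1a and Cdkn2d were lower than under TGF-β, at -0.30 and -0.71. Cdkn1a had been higher by 0.52 under TGF-β, and was still called higher than control after withdrawal, by 0.21. The final difference of Cdkn2d from control was -0.96. Rbl1, these further inhibitors, Gins3 and Gins4 were named after their values were seen.

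Of 11 other replication chromatin genes, 7 were lower and 1 higher under TGF-β, and 9 were lower after withdrawal than in control, with Hells at -1.99, the histone chaperone gene Asf1b at -1.82 and the maintenance methylation gene Uhrf1 at -1.69. Of 17 recombination and mismatch repair genes, 11 were lower under TGF-β and 16 after withdrawal, with Rad51ap1 at -2.27, the exonuclease gene Exo1 at -2.25 and the PCNA unloader gene Atad5 at -2.10. Mitosis genes were lower too. Of 25 measured, 19 were lower under TGF-β and 25 after withdrawal than in control, with medians of -0.36 and -1.73. Of all genes, 17.5% were called lower and 15.0% higher under TGF-β, and 23.6% and 21.7% after withdrawal against control. Aurkb, a mitotic kinase gene, had a final difference of -2.42. The fall was therefore shared by genes of S phase and of mitosis, and no difference between the lists was tested.

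**Figure D4:**
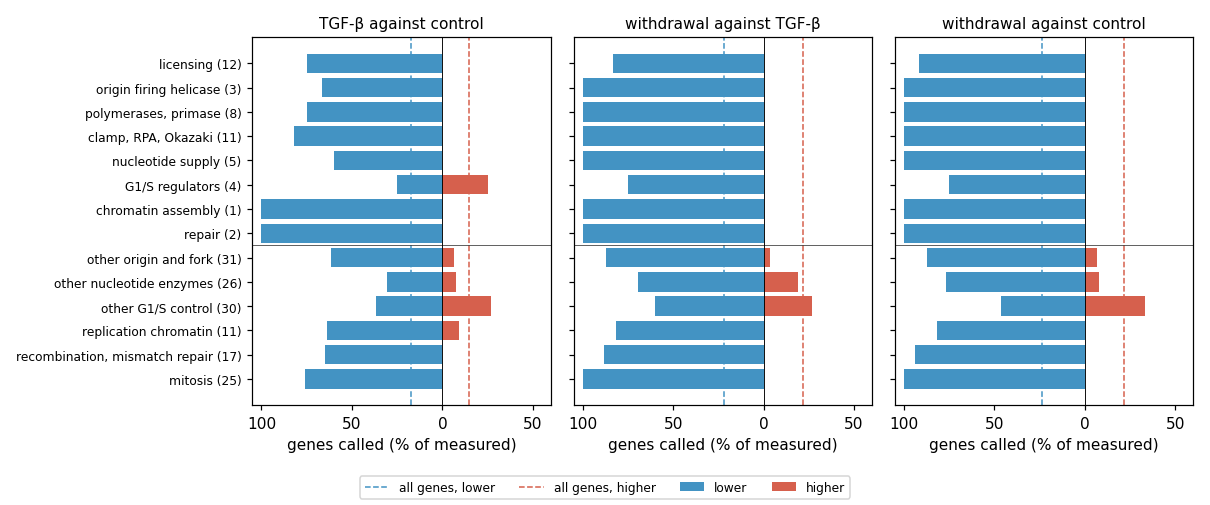
Share of measured genes called lower (bars to the left) and higher (bars to the right) by limma at an adjusted p under 0.05, in percent, for the steps of the member list (above the line) and for the other lists (below it), with the number measured in brackets and dashed lines for all genes. Most lists lie far to the left of the all-gene line of 23.6% for withdrawal against control, and the other G1/S control genes extend furthest to the right.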

How the data were processed

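The authors deposited 1 log2 expression value for each probe set and array, computed with RMA per the submitters' processing notes. No version of RMA is given. RNA was labelled with the 3' IVT Express kit per the labels' protocols, which reads mainly transcript ends. Array medians were 5.77 to 5.79. Depth does not apply to arrays, and their number limits the precision. Detection calls were not used, so dim values may be background.

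Of 45101 probe sets, 64 controls were left out, and the 34945 with exactly 1 symbol gave 18193 genes, each read from its brightest probe set. Of the members, 34 had several probe sets, and 0 had probe sets called in opposite directions.

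One limma 3.58.1 model (R 4.3.3) was fitted to all genes and all 6 arrays without covariates, with eBayes, two-sided tests and Benjamini-Hochberg adjustment over all genes. The median standard error of a difference was 0.0701. The script was tested on simulated data. Tables and figures used pandas 2.3.3 and matplotlib 3.10.9 in Python 3.11.15. Members, lists and named genes (all members, and up to 3 called genes per direction, list and comparison elsewhere) were chosen with earlier results of these data known. Replicate numbers were not treated as pairs. Deviations of the replicates correlated at -0.016 to 0.0067 across genes, which cannot show whether samples were handled together.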

Additional observations from a re-analysis of the deposited data

How the results depend on the processing

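Across 17 alternative settings, 26 to 35 members were lower under TGF-β, 38 to 45 on withdrawal against TGF-β and 39 to 46 for withdrawal against control. Over 16 settings their medians ranged over -0.64 to -0.32, -1.21 to -0.77 and -1.66 to -1.17, and no call was reversed. Not every setting measured all 46 members, so some of these counts are over fewer. Of the 44 members called lower after withdrawal than in control, the setting without x, s and a probe sets measured 40. The setting without the dimmest 40% of genes measured 43 of them. The replicate block gave 30, 44 and 45 lower members. Prim2, Pold2 and Rfc3 then lost their TGF-β calls (adjusted p = 0.0516, 0.0554 and 0.0639), and Orc1 gained calls after withdrawal. With 1 array of a group left out, the lone array is assumed to vary like the others, and the counts were 27 to 33, 41 to 43 and 44.

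Medians with hybridization spike scaling were -0.54, -1.21 and -1.66, with poly-A scaling -0.64, -0.85 and -1.40, with the mean of probe sets per gene -0.32, -0.77 and -1.18, and without x, s and a probe sets -0.33, -0.92 and -1.17. Quantile normalisation gave -1.04 for withdrawal against TGF-β and cyclic loess -1.23 for withdrawal against control. Without single arrays those medians ranged over -1.03 to -0.99 and -1.29 to -1.24. The 1 higher member under TGF-β, Ccne1, became 0 with either spike scaling, the mean of probe sets, a threshold of 0.01, or 1 array left out (0 to 1). Cdt1 made it 1 on withdrawal with cyclic loess and an intensity trend. The cause of these moves was not tested.

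Of the members called, 24 of 34, 38 of 43 and 43 of 44 kept their call under every setting that measured them. An added fit of all 100 member probe sets called 58, 74 and 83 of them lower and 1, 0 and 0 higher.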
